A study of Petromyzon marinus with 6 samples.

Results

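A group of 111 transcript units of the sea lamprey embryo stood high on day 1 after fertilization and had fallen to 25% or less of that level on day 2 and at every later stage. They are called early-cleared components here, where cleared means only this fall in relative level. A component is the set of assembled contigs that share an identifier up to its last sequence number, and its level is its summed expected count per 1000000 counts of the library (CPM). The group holds every component with 5 CPM or more on day 1, at most 25% of its day 1 CPM in all 5 later libraries, and 3 or more counts on day 4 or on day 5. These are 111 of 87262 components, or 0.803% of the 13818 that reached 5 CPM on day 1. The levels of all 6 libraries chose them, so the falls from day 1 are a description and carry no test.

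RNA was sequenced from whole embryos of Petromyzon marinus, a jawless vertebrate, on day 1, day 2, day 2.5, day 3, day 4 and day 5 after fertilization, with 1 paired-end library for each stage. The labels give no genotype, strain or treatment, and neither the number of embryos in a library nor their parents are stated. No difference between stages has a replicate check, and intervals (exact 95% Clopper-Pearson throughout) cover counting error only. In whole embryos, fewer cells of a type and less RNA per cell cannot be told apart.

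The libraries held 21910029 (day 1), 17598396 (day 2), 18387549 (day 2.5), 20769563 (day 3), 19845270 (day 4) and 15503408 (day 5) expected counts. A count of 3 is 0.137 CPM on day 1 and 0.194 CPM on day 5. The files pair no contig with a gene, and 0 of their 145913 identifiers occur among the 45433 genes of the name table used, so the components are told apart by their rank on day 1, their number of contigs and their length.

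An animal egg is loaded with RNA by the mother, and the first cell divisions run on it. As the embryo begins to transcribe its own genome, in what is known as the maternal-to-zygotic transition, many maternal transcripts are degraded, some by factors already in the egg and others only once new transcripts are made. Transcripts that are needed again later can be transcribed anew from the embryo's own genome. A level measured in whole embryos does not separate a remnant of maternal RNA from new RNA. The sea lamprey is also known for eliminating some of its DNA from body cells early in life.

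Levels of the early-cleared components came down in a first large step before day 2 and a second one between days 2.5 and 3, with little change in between. Their median was 24.9 CPM on day 1, 4.83 on day 2, 4.24 on day 2.5, 1.35 on day 3, 1.06 on day 4 and 1.42 on day 5. The median of all 13818 components with 5 CPM or more on day 1 was 21.8, 19.6, 19.4, 11.8, 9.53 and 11.8 CPM on the same days. Together the 111 took 1.02% of the counts on day 1 (interval 1.02% to 1.03%), 0.192% on day 2, 0.171% on day 2.5, 0.0571% on day 3, 0.0418% on day 4 and 0.0477% on day 5. Without the most abundant of them the same shares were 0.916%, 0.177%, 0.159%, 0.0535%, 0.0367% and 0.0445%. The 10 most abundant on day 1 held 53.8% of the group's counts on day 1, 45.4% on day 3 and 31.7% on day 5.

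**Figure D1:**
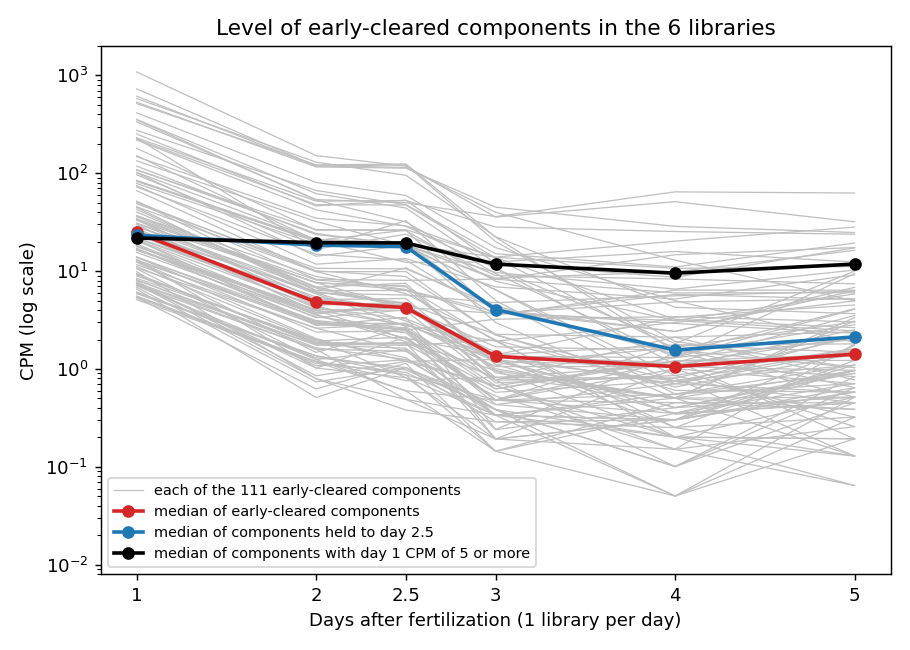
CPM on a log scale against days after fertilization, with 1 library per day. Grey lines are the 111 early-cleared components, and the coloured lines with points are medians of these (red), of 1127 components held to day 2.5 (blue) and of all 13818 components with 5 CPM or more on day 1 (black). The red median lies at 4.83 CPM on day 2, where the other two medians are still near their day 1 level.

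The share of the day 1 level left on day 2 lay in a narrow band under the limit that the choice imposes. It was 7.38% in the lowest component, 20.4% in the median one and 24.9% in the highest. Among the 13818 components with 5 CPM or more on day 1, 2.13% were at or under 25% of their day 1 CPM on day 2, 3.07% on day 2.5, 25.3% on day 3, 38.3% on day 4 and 31.6% on day 5, and 0.847% were so on all 5 days. Their median component still had 93.8% of its day 1 CPM on day 2, 93.7% on day 2.5, 49.6% on day 3, 37.9% on day 4 and 46.8% on day 5. In the early-cleared components the medians after day 2 were 16.7% on day 2.5, 4.92% on day 3, 4.19% on day 4 and 7.50% on day 5. At day 5 the lowest had 0.100% of its day 1 CPM and the highest 24.2%.

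The 25% limit cuts through a continuous distribution with no gap at the limit. In 69 of the 111 the highest later level was 20% or more of day 1, and in 1 it was under 12.5%. The 3 nearest inside the limit reached 24.9%, 24.8% and 24.7% of day 1, and the 3 nearest outside it 25.1%, 25.2% and 25.2%. Another 110 components with 5 CPM or more on day 1 and 3 counts in one of the last libraries reached more than 25% and at most 30%. In 47 of the 111 the counting interval of every later level lay below 25% of day 1, and the highest upper limit was 37.4%. At the lower limit of abundance, the 3 nearest inside had 5.11, 5.34 and 5.39 CPM on day 1 and the 3 nearest outside 4.93, 4.84 and 4.52 CPM. The choice hung most on the day 2 library, since 276 components qualified when day 2 was left out.

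A further 6 components fell in the same way but stayed under 3 counts in both of the last libraries. The most abundant of these had 500 counts on day 1, 27 on day 2, 50 on day 2.5, 13 on day 3, 1 on day 4 and 1 on day 5. Among the 111 early-cleared components, 99 had 3 or more counts on both of the last days, 6 on day 4 alone and 6 on day 5 alone. The weakest inside that limit had 3 counts in the better of both libraries.

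Among the 10 most abundant early-cleared components, 5 were 2-fold or more lower on day 5 than on day 3, and the others fell less, dipped and returned, or climbed. The one with the highest day 1 level, lcl|comp290882_c15, is a single contig of 7267 nt. It had 1084 CPM on day 1, 152 on day 2, 119 on day 2.5, 35.7 on day 3, 51.2 on day 4 and 31.9 on day 5. It was thus at 14.0% of its day 1 level on day 2 and 2.94% on day 5, and its day 4 level was 1.44 times that of day 3 (interval 1.31 to 1.58).

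Second in rank was a component of 2 contigs, the longest of 2728 nt, with 728 CPM on day 1, 119 on day 2, 115 on day 2.5, 39.9 on day 3, 13.0 on day 4 and 4.97 on day 5. The third, a single contig of 2566 nt, had 614 CPM on day 1, 118 on day 2, 122 on day 2.5, 20.03 on day 3, 1.91 on day 4 and 1.03 on day 5. Both paused between days 2 and 2.5 and went on falling afterwards. The fourth, of 2 contigs with the longest at 2385 nt, had 580, 130, 95.4, 22.5, 4.27 and 3.68 CPM from day 1 to day 5. The sixth, a single contig of 3968 nt, had 516 CPM on day 1, 122 on day 2, 124 on day 2.5, 22.3 on day 3, 1.51 on day 4 and 0.516 on day 5. No other early-cleared component kept so small a part of its day 1 level on day 5, at 0.100%, and its 8 counts there stand against 11301 on day 1. The seventh, of 4 contigs and at most 1132 nt, had 414, 80.6, 59.3, 17.4, 5.00 and 1.87 CPM. Per length it came first, with 831 TPM (a relative level divided by transcript length) on day 1, against 310 TPM for the component with the most counts.

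After day 3 the fifth went on falling, and the eighth, the ninth and the tenth did not fall steadily. The fifth, of 4 contigs and at most 4433 nt, had 533, 116, 113, 45.1, 28.7 and 24.8 CPM. Its level on day 5 was 0.551 times that on day 3 (0.488 to 0.621). The eighth (2030 nt) had 355 CPM on day 1, 62.1 on day 2, 44.2 on day 2.5, 10.6 on day 3, 1.82 on day 4 and 9.999 on day 5. The ninth (1932 nt) had 352, 53.2, 31.8, 9.44, 1.31 and 9.43 CPM. Both are single contigs, and their identifiers carry the same comp number, that is, they are subgroups of one assembly unit. They dipped on day 4 and were higher on day 5 by 5.49 times (3.81 to 8.16) and 7.19 times (4.71 to 11.4). Their day 5 levels were 0.943 (0.763 to 1.16) and 0.999 (0.800 to 1.24) times those of day 3.

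The tenth, lcl|comp270850_c0, a single contig of 2858 nt, was lowest on day 3 and higher on days 4 and 5. It had 336 CPM on day 1, 53.9 on day 2, 50.1 on day 2.5, 36.1 on day 3, 64.6 on day 4 and 62.8 on day 5. Its day 4 level was 1.79 times that of day 3 (1.64 to 1.96), and its day 5 level 1.17 times that of day 2 (1.07 to 1.28). With 974 counts on day 5 it was the most abundant early-cleared component there, ahead of the one that led on day 1.

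The deepest fall by day 2 was that of lcl|comp282890_c2, of 2 contigs with the longest at 1608 nt. It had 229 CPM on day 1, 16.9 on day 2, 32.8 on day 2.5, 5.01 on day 3, 0.554 on day 4 and 0.710 on day 5. These sums mix 2 courses on days 1, 2 and 2.5. The contig of 1608 nt had 221, 12.8 and 19.6 CPM, and the one of 880 nt had 8.41, 4.15 and 13.2 CPM. The summed day 2 level was 7.38% of day 1, and day 2.5 was 1.94 times day 2 (1.68 to 2.23). The next 4 by this ratio were rare, with 289.75, 144, 216 and 162 counts on day 1 and 17.99, 9, 14 and 14 on day 2. They kept 7.73%, 7.78%, 8.07% and 10.8% of their day 1 CPM on day 2, and the interval of the first of these ratios ran from 0.0452 to 0.124.

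Interval by interval, the widest gap between the early-cleared components and all day 1 components was in the first step. Folds were taken as differences of log2(CPM + 0.5), where the added 0.5 makes those of rare components smaller. The median log2 fold of day 2 over day 1 was -2.19, against -0.09 for the 13818 components with 5 CPM or more on day 1; this contrast was used in the choice. Day 2.5 over day 2 had a median of -0.17, against -0.01. A change was called when it passed 2-fold in log2(CPM + 0.5) and its counting interval excluded 1. In this interval 1 of the 111 was called lower and 0 higher, and in the background of day 1 components 1.89% were lower and 2.29% higher. The lower quartile on day 2 was 16.1% of day 1. The 25% limit on day 2.5 thus left most of the 111 no room for a 2-fold rise, and the 0 higher is no finding. By the counting interval alone, 26 were lower on day 2.5 than on day 2 and 8 were higher. No such share was taken in the background, so these counts are no result about the early-cleared components.

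Day 3 over day 2.5 had a median of -1.29 in the early-cleared components, against -0.77. In this half-day step 70 of 111, or 63.1%, were called lower and 0 higher, beside 40.4% lower and 4.78% higher in the background. The choice limited the early-cleared levels on both days and the background has no such limit, so the comparison is a description. A component above 12.5% of day 1 on day 2.5 could not double by day 3 under the 25% limit. The lower quartile on day 2.5 was 14.3% of day 1, so the 0 higher was largely fixed. The size of this step depended on the scaling of the libraries, which moved the medians of both sets together. With TMM factors the medians were -0.91 and -0.34, with DESeq2 size factors -0.85 and -0.28, and with the deposited TPM -1.43 and -0.84. The early-cleared median minus the background median was -0.52 with library sums and -0.57 to -0.59 with those 3 scalings. With DESeq2 size factors 44 of the 111 were called, and with TMM factors 47.

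Day 4 over day 3 had a median of -0.22, against -0.33, and day 5 over day 4 had 0.21, against 0.18. From day 3 to day 4, 25 of the 111 (22.5%) were called lower and 5 (4.50%) higher, beside 24.6% and 5.98% in the background. From day 4 to day 5, 5 (4.50%) were lower and 15 (13.5%) higher, beside 3.36% and 10.5%. These shares are near the background and show nothing particular to the early-cleared components. In 19 of the 111 every interval was downward. The lowest level was that of day 2.5 in 2, day 3 in 32, day 4 in 45 and day 5 in 32. Neither was counted in the background, and the choice fixed the first step down, so both only describe the early-cleared components.

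**Figure D2:**
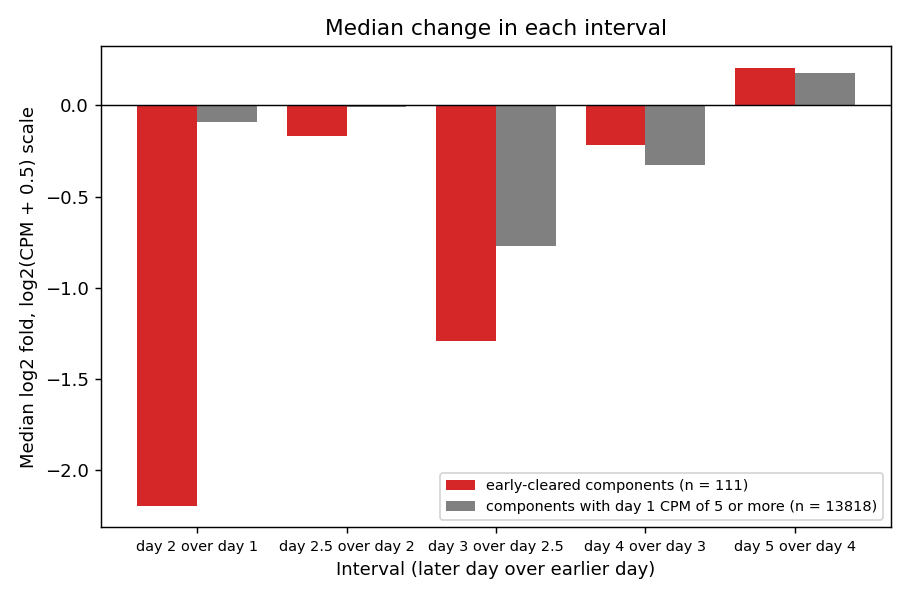
Median log2 fold of each consecutive pair of libraries, later day over earlier day, on the log2(CPM + 0.5) scale; red bars are the 111 early-cleared components and grey bars the 13818 components with 5 CPM or more on day 1. The red bar is far longer only for day 2 over day 1 (-2.19 against -0.09), the contrast used in the choice, and the bars of the last 2 intervals are alike.

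From day 3 to day 5, 16 of the 111 (14.4%) were called higher and 21 (18.9%) lower, while 74 were neither. In the background of day 1 components 12.6% were higher and 20% lower, so these shares are no result about the early-cleared components, and the values here only describe them. The 21 that were lower had a median of 109 CPM on day 1, 6.43 on day 3, 0.857 on day 4 and 0.645 on day 5. They took 0.427% of the counts on day 1 and 0.00259% on day 5. The 16 that were higher had a median of 20.8 CPM on day 1, 0.770 on day 3, 1.31 on day 4 and 2.71 on day 5. A higher day 1 level of those that went lower was also seen in the background, where the day 1 median was 31.2 CPM in the 2763 lower components and 13.7 CPM in the 1742 higher ones. Of the 10 most abundant on day 1, 5 were called lower. Calls in rare components need large folds: in 44 of the 111 the day 3 library held fewer than 20 counts. Among the other 67, 7 were called higher and 19 lower, a split not taken in the background. Spearman's rho across the 111 between day 1 CPM and the log2 fold of day 5 over day 3 was -0.33, beside -0.22 across the 13818 day 1 components, where the points share libraries and precision rises with abundance.

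**Figure D3:**
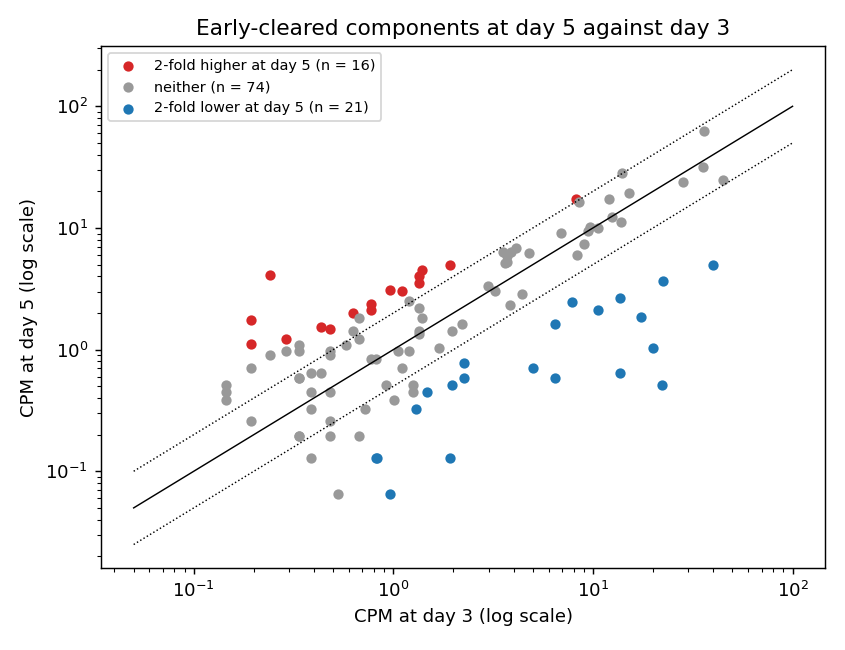
CPM on day 5 against CPM on day 3, both on log scales, with 1 point for each early-cleared component. Red points were called 2-fold higher on day 5 (n = 16), blue points 2-fold lower (n = 21) and grey points neither (n = 74); the solid line marks equal levels and the dotted lines a 2-fold difference. The blue points reach down to levels under 1 CPM on day 5 from 10 CPM and more on day 3.

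The largest return was that of lcl|comp287938_c0, a component of 2 contigs with the longest at 3087 nt. It had 20.9 CPM on day 1, 2.78 on day 2, 3.37 on day 2.5, 0.241 on day 3, 1.46 on day 4 and 4.13 on day 5. Its day 5 level was 17.1 times that of day 3, with a wide interval of 6.98 to 54.6 that comes from 64 counts against 5, and 1.48 times that of day 2 (1.01 to 2.20). It reached 19.8% of its day 1 level. This fold sets one contig against another: the contig of 3065 nt had 392.38, 49, 62, 0, 0 and 64 counts from day 1 to day 5, and the one of 3087 nt had 64.62, 0, 0, 5, 29 and 0.

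Other large values of day 5 over day 2 came from single contigs or from a mixture of contigs. The component ranked 57th, a single contig of 1815 nt, had 23.8, 4.20, 3.26, 1.40, 3.38 and 4.52 CPM from day 1 to day 5. Its day 5 level was 3.23 times that of day 3 (2.07 to 5.17), and day 4 already lay above day 3. The component ranked 62nd, a single contig of 1657 nt, had 20.8, 4.38, 2.77, 1.92, 2.98 and 4.97 CPM, with day 5 at 2.58 times day 3 (1.74 to 3.88). The one ranked 34th, of 5 contigs and at most 4844 nt, had 51.8, 6.32, 10.8, 4.09, 2.42 and 6.84 CPM, and its day 5 level was within counting error of day 2, at 1.08 times (0.823 to 1.43). That level on day 5 rested mainly on contigs with 59.51 and 33.53 counts there, which were at 0 on days 3 and 4, while the contig that led on day 1 had 84.78 counts on day 3, 37.84 on day 4 and 8.88 on day 5. In all of these the measured level of day 5 was back at or above that of day 2, far under that of day 1.

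Contigs that were at 0 on days 3 and 4 and present around them recurred. Of 163 contigs of early-cleared components with 20 or more counts on day 1, 4 had 20 or more on days 2.5 and 5 and 0 on days 3 and 4, in 4 components, both of those above included; 1 of these components was among the 16 called higher on day 5 than on day 3. The reverse, 20 or more counts on days 3 and 4 and 0 on days 2.5 and 5, was found in 0. Among 23630 contigs of all day 1 components the same counts were 147 and 25. The first is 0.622%, beside 2.45% for the 4 of 163. The pattern was chosen after seeing the data, and the 4 include contigs described above that show it. The 25% limit also kept the early-cleared components low on days 3 and 4, and the background has no such limit. These shares are thus no result about the early-cleared components. Another split was commoner in the background, with 20 or more counts on days 2.5 and 3 and 0 on days 4 and 5. It was found in 253 of the 23630 (1.07%) and in 1 of the 163 (0.613%). No label marks the libraries of days 3 and 4 as prepared apart from those of days 2.5 and 5, and whether such contigs follow the stage, the library or the division of reads was not tested.

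The 25% limit nearly fixes how day 5 compares with day 2. Of the 111, 0 were 4-fold higher on day 5 than on day 2, beside 10.3% of the 31144 components with 60 or more counts in all and 4.00% of the day 1 components. The limit left none of the 111 room for such a rise, so this count is no finding. At 2-fold the count was also 0, and 107 had no room for that. By the counting interval alone 3 were above and 74 below their day 2 level, with no such share taken in the background. Also not taken in the background, the highest level after day 1 was that of day 2 in 68 and day 2.5 in 30. It was that of day 3 in 3, day 4 in 2 and day 5 in 8. One of those 8 was the component ranked 17th, of 4 contigs and at most 4618 nt, with 180, 26.2, 26.5, 13.9, 20.3 and 28.2 CPM. Its day 5 level was 2.03 times that of day 3 (1.74 to 2.36), and it was not called since its fold in log2(CPM + 0.5) fell short of 2.

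**Figure D4:**
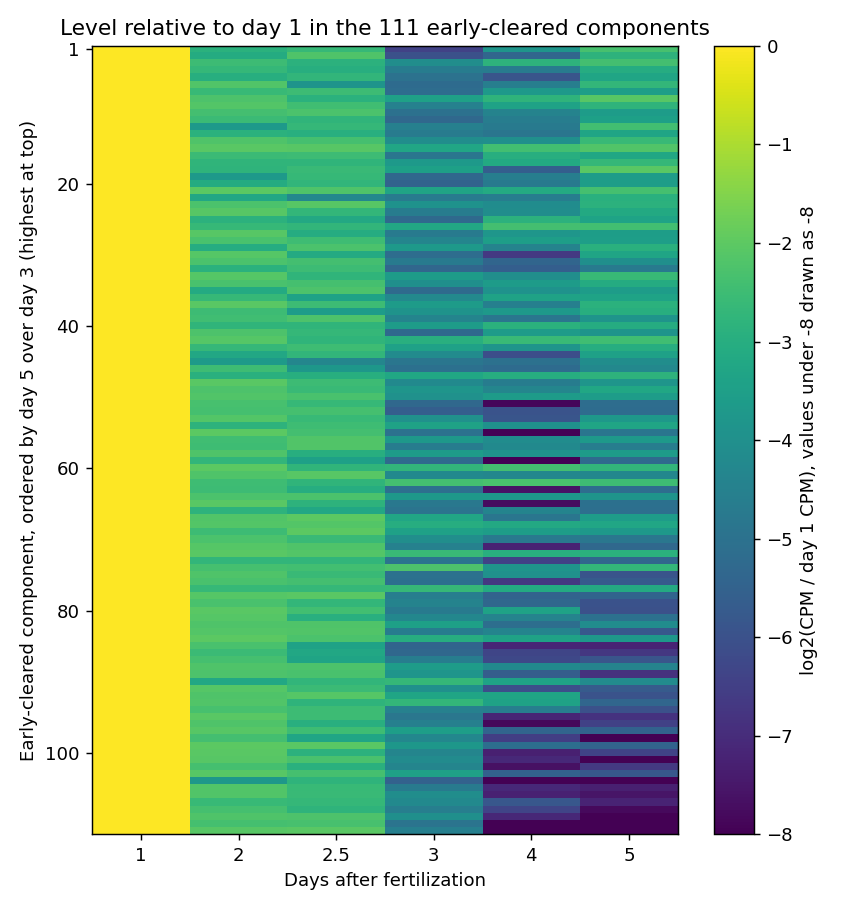
Level of each of the 111 early-cleared components relative to its own day 1 level, as log2 of the ratio of CPM (values under -8 are drawn as -8), with days after fertilization from left to right. Rows run from the highest day 5 over day 3 at the top to the lowest at the bottom. The columns of days 2 and 2.5 are alike in nearly all rows. Day 5 ranges from near the level of day 2 at the top to under 1% of day 1 at the bottom. In the 16 called higher on day 5 than on day 3, the median was lowest on day 3, at 0.770 CPM. It was 3.47 CPM on day 2, 1.31 on day 4 and 2.71 on day 5.

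Components held at a high level until day 2.5 and then down to 25% or less from day 3 gave a second early pattern to set beside this one. There were 1127, each with at least 50% of its day 1 CPM at days 2 and 2.5 and 3 or more counts in one of the last libraries. The day 1 median was 24.9 CPM in the early-cleared components and 23.3 CPM in the held ones, and the day 3 median was 1.35 CPM in the early-cleared components and 4.05 CPM in the held ones. By day 5 the medians were 1.42 CPM in the early-cleared components and 2.13 CPM in the held ones. Their rises after day 3 cannot be compared, since the 25% limit on day 5 left 10 of the 111 early-cleared components but 985 of the 1127 held ones no room for a 2-fold rise. Both sets were chosen from the same libraries.

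In their assembly the early-cleared components were somewhat shorter and more often single contigs than the day 1 components, and why was not tested. The longest contig had a median of 1657 nt (interquartile range 924 to 2562), from 526 to 8577 nt, against 1846 nt in the 13818 day 1 components. Single contigs made up 72 of the 111, or 64.9%, against 50.1%. In 32, or 28.8%, the longest contig was under 1000 nt, against 20.3%. In 24, or 21.6%, every count in every library was whole to within 0.005, against 7.99% of the day 1 components. The 1127 components held to day 2.5 lay between, with 57.2% single contigs, 23.9% under 1000 nt and 12.6% with whole counts throughout. Whole counts show no division of reads with another contig, but they do not exclude it. These 24 had lower levels, with a median of 8.85 CPM on day 1, 1.62 on day 2, 1.41 on day 2.5, 0.409 on day 3, 0.353 on day 4 and 0.871 on day 5. Between days 2.5 and 3 their median log2 fold was -1.04, against -0.77 in the background, a gap of -0.27 where all 111 had -0.52. In this step 12 of the 24, or 50%, were called lower, beside 40.4% in the background. At such low levels the added 0.5 makes folds smaller, so these gaps are not alike. As shares of the library, the 24 went from 0.00498% on day 2.5 to 0.00143% on day 3. All 111 went from 0.171% to 0.0571%.

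Some early-cleared components shared a comp number, and the choice itself gave all of them the fall from day 1. The 111 carry 97 different comp numbers, and 25 of them lie in 11 comp numbers that hold 2 or 3 early-cleared components each. One such set of 3 single contigs, of 1761, 993 and 564 nt, had 219, 134 and 45.4 CPM on day 1, 42.3, 32.2 and 9.89 on day 2, 10.6, 6.45 and 1.98 on day 3, and 2.13, 1.61 and 0.516 on day 5. A pair of 1818 and 1851 nt had 44.9 and 42.8 CPM on day 1, 5.97 and 6.31 on day 2, 4.77 and 3.61 on day 3, and 6.25 and 5.16 on day 5. Another pair, of 1265 and 933 nt, had 34.3 and 33.3 CPM on day 1, 1.35 and 1.35 on day 3, and 3.52 and 4.06 on day 5. A pair of at most 1132 and 1109 nt was less alike, with 17.4 and 1.00 CPM on day 3, and 1.87 and 0.387 on day 5. Within a comp number the log2 folds of day 5 over day 3 differed by a median of 0.42 and at most 2.15. No such difference was taken between comp numbers, so whether courses are more alike within them was not tested. Components of one comp number are no independent cases. With 1 component kept for each comp number, 59 of 97 were lower on day 3 than on day 2.5, 12 were higher on day 5 than on day 3, and 19 were lower.

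Those comp numbers also held components that did not pass the rule. The 97 comp numbers held 79 other components with 5 CPM or more on day 1, spread over 37 of them, whose median on day 2 was 61.2% of day 1. Of these 79, 8 were at or under 25% on day 2 and 34 were at or under 50% on every later day. Among all 13818 day 1 components the day 2 median was 93.8%, and 2.13% were at or under 25% on day 2. At the 50% limit, with the late minimum of 3 counts kept, 938 of the 13818 passed. These others thus fell more often than day 1 components in general, and why was not tested. Summed over whole comp numbers, 62 units passed the rule.

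Within components of several contigs, the sum fell while single contigs often did not. The 39 early-cleared components with 2 or more contigs held 91 contigs that reached 20 counts on day 1, and 52 of these, or 57.1%, were themselves at or under 25% of day 1 at every later day. Among all contigs with that many counts, single ones included, the number was 124 of 163, or 76.1%. This share is largely fixed, since the contigs of the 72 single-contig components pass by the choice itself. The limit on the sum also bears most on the contigs with the most counts. Neither the 57.1% nor the 76.1% has a like share in other day 1 components, so both only describe the early-cleared components. The 39 exceptions lay in 27 components and took 7.94% of the day 1 counts of the whole group. Their highest later level was that of day 2 in 14, day 2.5 in 15, day 3 in 1, day 4 in 2 and day 5 in 7, and 8 rose above their own day 1 level.

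The thirteenth component shows a sum and a contig that differ. Its sum had 230 CPM on day 1, 51.9 on day 2, 52.7 on day 2.5, 28.3 on day 3, 25.4 on day 4 and 23.9 on day 5. Its contig of 5021 nt had 43.1 CPM on day 1, 35.4 on day 2, 42.3 on day 2.5, 18.2 on day 3, 11.7 on day 4 and 12.5 on day 5, so it did not share the fall before day 2. The contig with the most counts on day 1 was still the main one in 32 of the 39 components on day 2, in 31 on day 2.5, in 27 on day 3, in 26 on day 4 and in 20 on day 5. In 6 components, 9 contigs had fewer than 3 counts on day 1 and 20 or more at a later day. Neither the main contigs nor these late ones were counted in other day 1 components, so the numbers only describe the 39. Contigs of one component share reads, and whether these shifts come from the transcripts or from the division of reads was not tested.

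**Figure D5:**
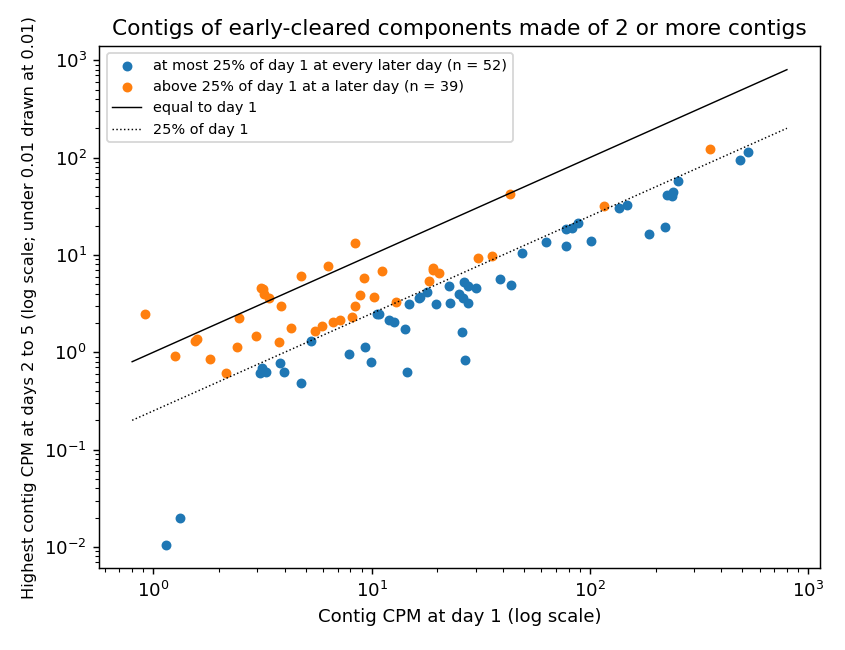
Highest contig CPM over days 2 to 5 against contig CPM on day 1, both on log scales (values under 0.01 are drawn at 0.01), for the 91 contigs with 20 or more counts on day 1 in early-cleared components of 2 or more contigs. Blue contigs were at or under 25% of day 1 at every later day (n = 52) and orange ones were not (n = 39); the solid line marks the day 1 level and the dotted line 25% of it. Most orange contigs lie under 20 CPM on day 1.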

How the data were processed

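Paired-end RNA-seq libraries of whole embryos, 1 per stage, were quantified with RSEM, as the submitters' processing notes say. The RSEM version is not given in the sources used here, nor are the aligner and the assembly method. Each contig has, per the file headers, a length, an expected count (the authors' estimated count of fragments, not normalized), a TPM (per effective length, scaled by the authors to 1000000) and an FPKM. The deposited FPKM values were not used.

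Expected counts were summed by component and divided by the library sum to give CPM, without rounding for levels and rounded for intervals. Such CPM are relative: a large change in other transcripts shifts them. Between 39.2% and 50.6% of nonzero counts in a library were not whole to within 0.005. Folds used log2(CPM + 0.5).

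The components and lists were chosen with earlier results of these data known. Components described singly were the 10 highest at day 1, the 5 with the lowest day 2 over day 1 (100 or more counts at day 1), the 5 with the highest day 5 over day 2 (50 or more counts at day 5) and the 3 nearest each limit; the others named (ranks 13 and 57, and those of shared comp numbers) were chosen after their values were seen. At most 4 identifiers are printed. The steps after day 2.5, the set held to day 2.5, the shared comp numbers and the contigs at 0 on days 3 and 4 were added after seeing the data. The member search and the calls were tested on simulated counts. Components of 10 CPM or more on day 1 were given later levels of 12.5% or 50% of day 1. None was set near the 25% limit, so the simulation does not show how well the search decides there. Scalings tried were TMM factors of edgeR 4.0.16, DESeq2 1.42.0 size factors, the deposited TPM and library sums without the most abundant component, beside other limits and leaving out each library. The work was done in Python 3.11.15 (pandas 2.3.3, numpy 2.4.6, scipy 1.17.1) and R 4.3.3.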

Additional observations from a re-analysis of the deposited data

How the results depend on the processing

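With 1 library per stage, nothing here separates a stage from its library, and counts under 3 cannot show absence. Of 61 alternative values, 43 stayed within a set distance of those reported and 18 moved beyond it. The distance was 1.5 times for a count, 0.1 for a median log2 fold and the counting interval for a share. A reversal could be recorded for medians alone, and the choice fixes the sign of day 2 over day 1. That 0 were reversed is thus no finding. The 43 include the counts 4-fold higher at day 5 than at day 2, which the 25% limit fixes at 0. Causes were not tested unless given. The 111 early-cleared components became 172 with the deposited TPM (108 shared), 1 at a limit of 12.5% of day 1, 938 at 50%, 236 when contigs were taken singly and 62 by comp number. Leaving out a library, and with it its limit, gave 107 (day 4) to 276 (day 2), with 164 without day 2.5. They took 1.02% of day 1 counts, against 0.000986% at the 12.5% limit, 1.01% from 10 CPM and 1.03% with no late minimum; at day 2 they took 0.192%, against 7.96e-05% and 0.189% for the first 2 of these. Adding 5 CPM in place of 0.5, by construction smaller folds for rare components, gave a median day 2 over day 1 of -1.56 in place of -2.19. Of contigs with 100 or more counts at day 1, 83.6% fell, against 76.1% from 20 counts. Both shares include the contigs of single-contig components, which pass by the choice itself. At day 3 against day 2.5, 70 were lower, against 44 with DESeq2 size factors and 47 with TMM factors. The median of -1.29 became -0.91 with TMM factors, -0.85 with DESeq2 size factors and -1.43 with TPM. It was -1.04 in the 24 components with whole counts, which are rarer, so that the added 0.5 makes their folds smaller. The count 4-fold higher at day 5 than at day 2 was 0 in the alternatives run, which all keep the 25% limit that fixes it, so this says nothing of stability. For the later steps the 111 components were kept the same under each scaling. No paired analysis was possible because there was a single library at every stage.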

Other observations

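Taken singly, 236 contigs passed the same limits as the components. Of these, 111 lay in early-cleared components and 125 in components whose summed counts did not pass.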
